A study of Mus musculus with 9 samples.

Results

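The genes described here encode proteins of epithelial cell-cell junctions and adhesion, and were measured in tumor cells recovered by sorting from mouse mammary tumors of the 67NR, 4T07 and 4T1 lines. The list holds 10 genes (Cdh1, Epcam, Cldn3, Cldn4, Cldn7, Ocln, F11r, Tjp3, Dsp and Jup), and its members were found as the array probes that the platform annotation pairs with one of these symbols. A named probe was found for 8 of the 10 genes, of 12148 genes named in all. Epcam and Dsp have no named probe here and were not analysed. The 8 genes carry 10 probes, since Cdh1 and Tjp3 have 2 each.

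Each line was profiled on 3 Illumina mouse bead arrays, 9 in all. The untreated cells (500000 per inoculation) had grown orthotopically in the mammary gland of female hosts, Ub-GFP mice on Balb/c, in which GFP marks the animal's own cells, for 2 to 4 weeks until the tumors measured about 10 mm across. GFP-negative and CD45-negative cells were then sorted, a gate meant to leave host cells and leukocytes behind, and biotin-labeled cRNA was made from their total RNA. The lines 67NR, 4T07 and 4T1 come from the same mammary tumor and are known as nonmetastatic, as forming micrometastases in the lung and as overtly metastatic, respectively, so that each group stands for 1 cell line. Whether the 3 arrays of a line came from separate mice is not stated in the labels or the methods, and p-values then measure only the spread between these samples, which may be technical.

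Epithelial cells hold to each other through junctions that lie in a fixed order along their side walls. Tight junctions, made of claudins, occludin and JAM proteins that are tied to the cytoskeleton by ZO scaffolds, seal the sheet. Adherens junctions join neighboring cells through E-cadherin and its catenins, and desmosomes through desmosomal cadherins, plakoglobin and desmoplakin. In mammary epithelium, loss of E-cadherin and of claudins is a known trait of the epithelial-mesenchymal transition, in which zinc-finger repressors such as Zeb1 and Snai2 bind E-box sequences.

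The 250 bases upstream of the start of 4 members are shown, because these 4 genes differed between lines on the arrays and their promoters could be searched for the E-box that these repressors bind. The sequences are from RefSeq on GRCm38.p6, in which 9 of the 10 members had a promoter entry, and read 5′ to 3′ on the strand of the gene. The member without an entry is Cdh1, so its promoter was not searched. The windows are chr5:134985964-134986213 (plus strand) for Cldn3, chr5:134946935-134947184 (minus strand) for Cldn4, chr1:171437311-171437560 (plus strand) for F11r and chr13:100552499-100552748 (minus strand) for 1 of the 2 entries of Ocln. Capitals mark the E-box CACCTG, or CAGGTG where it lies on the other strand.
Cldn3: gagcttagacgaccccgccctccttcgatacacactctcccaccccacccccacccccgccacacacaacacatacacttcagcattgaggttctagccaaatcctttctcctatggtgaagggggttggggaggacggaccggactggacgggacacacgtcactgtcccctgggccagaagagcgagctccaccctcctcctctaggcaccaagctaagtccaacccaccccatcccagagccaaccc
Cldn4: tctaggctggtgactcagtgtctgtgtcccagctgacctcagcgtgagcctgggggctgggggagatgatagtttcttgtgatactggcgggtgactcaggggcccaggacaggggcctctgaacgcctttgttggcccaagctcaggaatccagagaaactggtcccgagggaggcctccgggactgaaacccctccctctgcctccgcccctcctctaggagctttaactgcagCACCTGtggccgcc
F11r: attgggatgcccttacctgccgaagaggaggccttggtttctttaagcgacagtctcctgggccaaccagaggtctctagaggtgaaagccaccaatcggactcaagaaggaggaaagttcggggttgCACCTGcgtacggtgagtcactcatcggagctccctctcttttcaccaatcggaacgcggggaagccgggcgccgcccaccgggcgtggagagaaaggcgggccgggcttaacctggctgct
Ocln: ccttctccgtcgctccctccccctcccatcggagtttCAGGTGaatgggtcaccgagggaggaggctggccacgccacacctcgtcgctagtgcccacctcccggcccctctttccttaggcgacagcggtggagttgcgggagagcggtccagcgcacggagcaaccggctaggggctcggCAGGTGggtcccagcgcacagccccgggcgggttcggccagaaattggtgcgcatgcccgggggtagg
The E-box was present once in the Cldn4 window, with its first base at -14 from the start, and once in the F11r window, at -122. The Ocln window held 2 matches, at -213 and -68, while the window of the other Ocln entry and the Cldn3 window held 0. Over all promoter entries, 5657 of 32851 windows of this length (17.2%) held the motif on either strand. Among the other members, Cldn7 held 2 matches in 1 of its 2 windows, Epcam held 2, each of the 2 Tjp3 windows held 1, and Dsp and Jup held 0. The motif AACCGGTT, bound by Grainyhead-like factors, was in 0 of the members' windows and in 0.116% of all windows. These are matches of letters in a window and were not tested for binding.

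The arrays detected similar numbers of probes: each array detected between 16025 and 17566 of its 45281 probes (detection p under 0.05), and the correlation of 2 arrays over all genes tested was at least 0.983 within a line and at most 0.942 between lines. Levels are given as log2 intensities after background correction and quantile normalization. A level is set only against the same probe on other arrays, since probes differ in how brightly they bind. The lowest log2 level of a detected probe lay between 5.04 and 5.20 on the 9 arrays, so that a level near 4.5 is background. A gene was tested if its probe was detected on at least 3 of the 9 arrays, which left 10021 genes and 6 of the members (limma on all 9 arrays, Benjamini-Hochberg adjustment over all genes tested). Where a probe was not detected on any array of a line, the fold is given as "at least", taken over the limit of detection on those arrays (the dimmest detected probe), or over the probe itself where it was brighter than that. Folds and bounds hold for these background-corrected levels; with the authors' deposited log2 values every called difference of a member was smaller (in 4T1 against 67NR, 2.92 for Cdh1, 3.59 for Cldn3, 5.55 for Cldn4, 0.40 for Ocln and 1.78 for F11r), also below the bounds given here. In bulk RNA of sorted cells, fewer cells with a transcript and less of it in each cell cannot be told apart.

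Of the 6 members tested, 5 were higher in 4T1 than in 67NR tumor cells, 0 were lower and 1 did not pass (limma, adjusted p under 0.05). Over all genes tested, 49.8% were called in this comparison, 23.2% as higher and 26.6% as lower. The arrays of the 2 lines did not overlap for 5 of the 6 members and for 58.7% of all genes. The median difference was 4.37 on the log2 scale, beside -0.05 over all genes tested. In 4T07 against 67NR cells, 3 members were higher and 0 lower, where 45.3% of all genes were called, 21.9% as higher and 23.4% as lower. The lines did not overlap for 2 members and for 53.4% of all genes. The members' median there was 0.31, beside -0.05. In 4T1 against 4T07 cells, 5 were higher and 0 lower, where 29.8% of all genes were called, 14.0% as higher and 15.8% as lower, with a median of 2.19 beside -0.01. There the arrays of 5 members were apart, as were those of 44.9% of all genes. These counts are a description and no support for a pattern. Cldn3 and Ocln passed the detection filter only through the 4T1 arrays and therefore had to differ. Cldn4 would not have passed without the 4T1 arrays either, as it was detected on 2 4T07 arrays and 0 67NR arrays. F11r passed only through the 4T1 and 4T07 arrays, which limits its comparisons with 67NR in the same way. The same limit holds for every other gene named below as detected in 1 line only or with a fold given as "at least". The comparisons of 4T1 and of 4T07 with 67NR share the 67NR arrays.

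**Figure D1:**
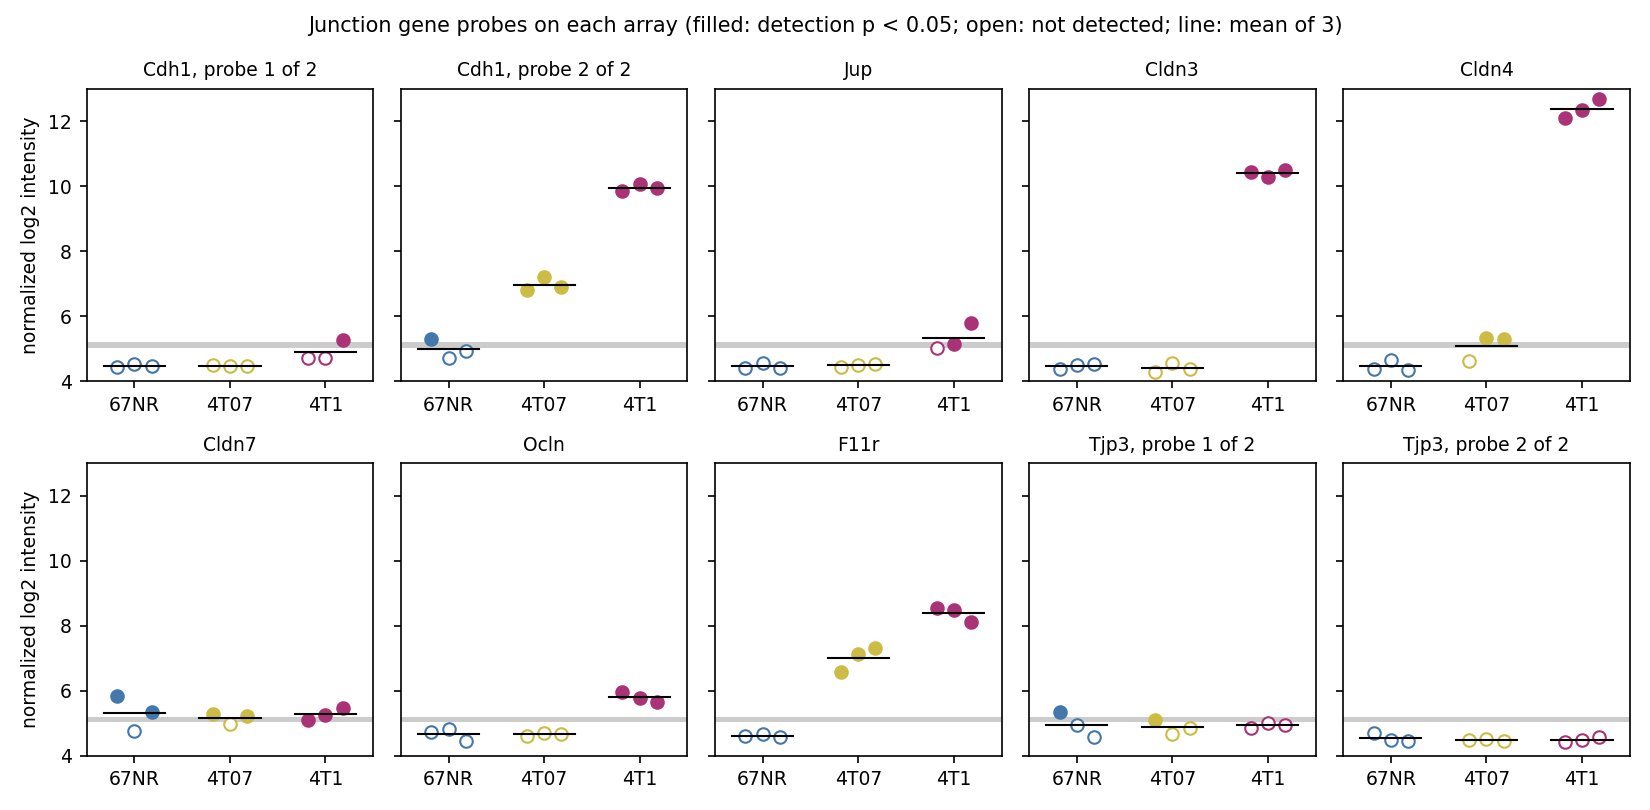
Normalized log2 intensity (vertical axis) of the 10 probes of the 8 genes on the 9 arrays, by line. Each point is 1 array, filled where detected at p under 0.05, the horizontal line is the mean of 3 arrays, and the grey band spans the lowest levels of a detected probe (5.04 to 5.20). Cldn3 and Cldn4 lay above 10 in 4T1 only, Cdh1 and F11r rose in steps from 67NR over 4T07 to 4T1, and Cldn7 and Tjp3 stayed near the band in every line.

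Cdh1 encodes E-cadherin, the cadherin of epithelial adherens junctions. Its probe used in the test read 5.32, 4.71 and 4.95 on the 67NR arrays, 6.82, 7.20 and 6.90 on the 4T07 arrays and 9.87, 10.08 and 9.95 on the 4T1 arrays. The 3 lines did not overlap, and 67NR was at background, with the probe detected on 1 of its 3 arrays. Cdh1 was 31.4-fold higher in 4T1 than in 67NR (log2 fold change 4.97, SE 0.17, limma, adjusted p = 6.21e-10). It was 3.94-fold higher in 4T07 than in 67NR (1.98, SE 0.17, adjusted p = 2.38e-06) and 7.96-fold higher in 4T1 than in 4T07 (2.99, SE 0.17, adjusted p = 2.19e-07). Both folds over 67NR are set against a level at the limit of detection and are fitted values, not measured ratios. With the authors' deposited values the difference between 4T07 and 67NR was 0.77. Each line differed from both others, in the order 67NR, 4T07, 4T1. The other Cdh1 probe, which the annotation ties to a different transcript, was near background throughout. It read 4.45 to 4.53 in 67NR, 4.46 to 4.50 in 4T07 and 4.73, 4.73 and 5.26 in 4T1, where it was detected on 1 array, and it did not enter the test. The probes of Cdh1 therefore disagree in size, and the values above rest on 1 probe.

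Jup encodes plakoglobin, a catenin shared by desmosomes and adherens junctions. Its levels were 4.41, 4.56 and 4.41 in 67NR, 4.43, 4.49 and 4.55 in 4T07 and 5.03, 5.15 and 5.81 in 4T1. All 4T1 arrays lay above all others, but close to background, and detection was reached on 2 arrays of 4T1 and nowhere else, too few for the filter. In the fit without a filter on detection (12148 genes, of which 41.6% were called in 4T1 against 67NR and 24.4% in 4T1 against 4T07), Jup was higher in 4T1 by 0.87 against 67NR (SE 0.19, adjusted p = 0.003, limma) and by 0.84 against 4T07 (SE 0.19, adjusted p = 0.00727). For 4T07 against 67NR, where 37.8% of genes were called in that fit, the difference was 0.03 (adjusted p = 0.929).

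Cldn4 encodes claudin-4, a tight junction claudin of simple epithelia. Levels were 4.39, 4.65 and 4.36 in 67NR, 4.63, 5.33 and 5.31 in 4T07 and 12.10, 12.35 and 12.68 in 4T1. Before normalization the intensities were 4550, 6640 and 5510 in 4T1, against 81.6 to 103 in 67NR and 101 to 124 in 4T07. The 4T1 arrays thus stood far above the others, while 67NR and 4T07 overlapped near background. Cldn4 was at least 150-fold higher in 4T1 than in 67NR (log2 fold change 7.91, SE 0.21, adjusted p = 8.74e-11, limma) and 156-fold higher than in 4T07 (7.29, SE 0.21, adjusted p = 6.3e-10), where it was detected on 2 of 3 arrays near that limit, so that this fold too is a fitted value. The difference between 4T07 and 67NR was 0.62 (95% interval 0.10 to 1.14, adjusted p = 0.0321). That call was lost under 8 of the alternatives, among them without 67NR replicate 1 (adjusted p = 0.0779), without 67NR replicate 3 (0.0885), without 4T07 replicate 2 (0.117) and without 4T07 replicate 3 (0.104).

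Cldn3, which encodes claudin-3 and lies beside Cldn4 on chromosome 5, was detected in 4T1 only. It read 4.39, 4.49 and 4.53 in 67NR, 4.30, 4.58 and 4.37 in 4T07 and 10.46, 10.28 and 10.52 in 4T1. The 67NR and 4T07 arrays overlapped at background, and every 4T1 array was far above them. The fold was at least 38.8 over 67NR (log2 fold change 5.96, SE 0.13, adjusted p = 3.39e-11, limma) and at least 40.4 over 4T07 (6.01, SE 0.13, adjusted p = 1.11e-10). For 4T07 against 67NR the interval of the difference was -0.38 to 0.28 (adjusted p = 0.781), between lines in which the probe was not detected.

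Cldn7, the third claudin of the list, behaved differently from these. Levels were 5.85, 4.76 and 5.33 in 67NR, 5.28, 4.99 and 5.21 in 4T07 and 5.09, 5.25 and 5.47 in 4T1. The lines overlapped, and the probe was close to the limit of detection in each, with 2, 2 and 3 arrays detected. No difference passed the test: it was -0.04 for 4T1 against 67NR (95% interval -0.62 to 0.54, adjusted p = 0.899, limma), -0.15 for 4T07 against 67NR (-0.73 to 0.43, adjusted p = 0.643) and 0.11 for 4T1 against 4T07 (-0.47 to 0.69, adjusted p = 0.777). The intervals leave room for differences of up to 0.73 on the log2 scale in size.

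Ocln encodes occludin, a membrane protein of the tight junction strand. Its levels were 4.72, 4.83 and 4.45 in 67NR, 4.61, 4.69 and 4.66 in 4T07 and 5.97, 5.79 and 5.66 in 4T1. Only the 4T1 arrays were above background, and they did not overlap with the other lines. The rise was modest, at least 1.59-fold over 67NR (log2 fold change 1.14, SE 0.14, adjusted p = 4.42e-05, limma) and at least 1.65-fold over 4T07 (1.16, SE 0.14, adjusted p = 0.000115). The difference between 4T07 and 67NR was -0.01 (95% interval -0.36 to 0.34, adjusted p = 0.949).

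F11r encodes JAM-A, an immunoglobulin-like adhesion protein of tight junctions. It read 4.60, 4.68 and 4.58 in 67NR, 6.57, 7.13 and 7.32 in 4T07 and 8.55, 8.48 and 8.12 in 4T1. The probe was detected on all arrays of 4T07 and 4T1 and on no 67NR array, and the lines did not overlap. F11r was at least 9.43-fold higher in 4T1 than in 67NR (log2 fold change 3.76, SE 0.19, adjusted p = 1.81e-08, limma) and at least 3.63-fold higher in 4T07 than in 67NR (2.39, SE 0.19, adjusted p = 1.24e-06). With the authors' deposited values the difference between 4T07 and 67NR was 0.93, less than this bound. The step from 4T07 to 4T1 was 2.60-fold (1.38, SE 0.19, adjusted p = 0.000295). As for Cdh1, the order was 67NR, 4T07, 4T1, with a difference at each step.

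Tjp3 encodes ZO-3, a scaffold that ties claudins to the cytoskeleton. Its first probe read 5.33, 4.93 and 4.58 in 67NR, 5.09, 4.67 and 4.86 in 4T07 and 4.86, 5.00 and 4.94 in 4T1, and was detected on 1 array each of 67NR and 4T07. The second was detected on 0 of 9 arrays, with levels of 4.43 to 4.71. Neither probe entered the test. In the fit without a filter the differences were -0.02 for 4T1 against 67NR, -0.07 for 4T07 against 67NR and 0.06 for 4T1 against 4T07 (SE 0.19 each, adjusted p of 0.96, 0.812 and 0.875, limma). Tjp3 was thus at or near background in every line.

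**Figure D2:**
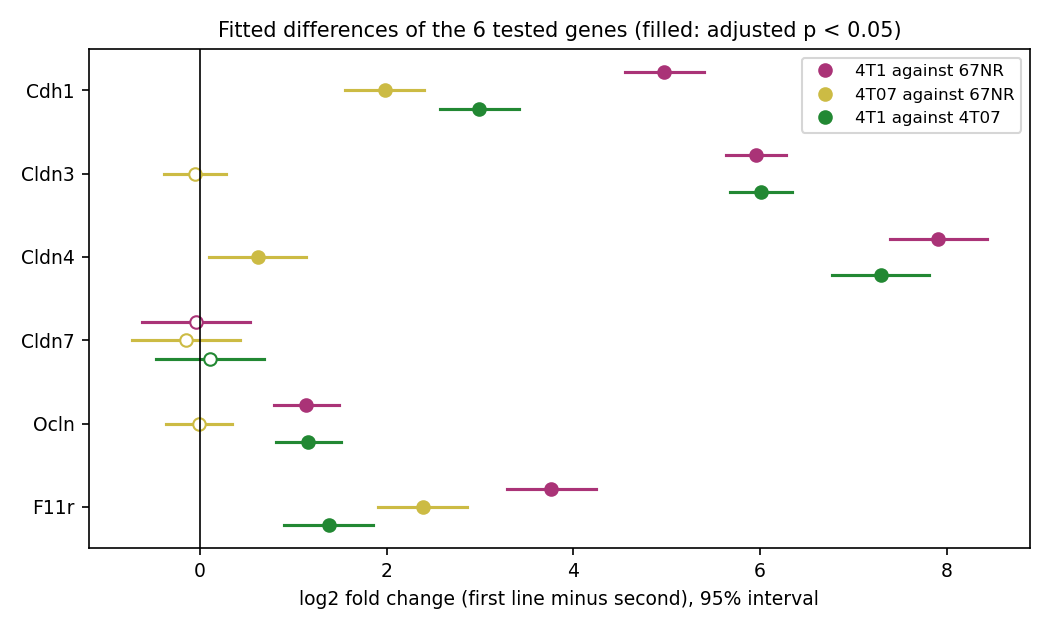
Fitted log2 fold change (horizontal axis, first line minus second) with its 95% interval for the 6 tested genes in the 3 comparisons; filled points have an adjusted p under 0.05. Cldn3 and Ocln differed in both comparisons of 4T1 but not between 4T07 and 67NR, Cdh1 and F11r differed in all 3, and the intervals of Cldn7 include 0 throughout.

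The members thus fell into different patterns across the lines, which were described after the values were seen. Cldn3 and Ocln were detected on all 4T1 arrays and on no array of 67NR or 4T07, a pattern shared by 109 of the 10021 genes (1.09%). F11r was detected on all 4T1 and 4T07 arrays and on no 67NR array, as were 355 genes (3.54%). Over the 9 arrays, the levels of Cldn3 and Cldn4 followed each other with a Pearson r of 0.995, and Cdh1 and F11r with 0.953. The r of Cldn7 with the other tested members lay between -0.137 and 0.0437. These correlations rest on 9 arrays of 3 lines, so that they largely restate the differences between lines.

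Cldn4 and Cldn3 are neighbors on chromosome 5 in the RefSeq annotation, with 0 genes with a named probe between them. The 5 nearest genes with a named probe on each side were therefore looked at, a choice made after the claudin values were seen. Of these 10 genes 8 were tested, and 4 were called in 4T1 against 67NR, 2 of them higher, a share near the 49.8% called over all genes. Their differences ran from -2.49 for Lat2, an adaptor of immune cells, to 1.79 for Stx1a, a syntaxin of vesicle fusion. The nearest gene on either side, Mettl27 (0.43, adjusted p = 0.178, limma) and Abhd11 (0.38, adjusted p = 0.0849), did not pass the test. Against 4T07 the 8 neighbors differed by -0.78 to 1.13, where the fitted differences of the claudins, against probes at or near background in 4T07, were 7.29 and 6.01.

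**Figure D3:**
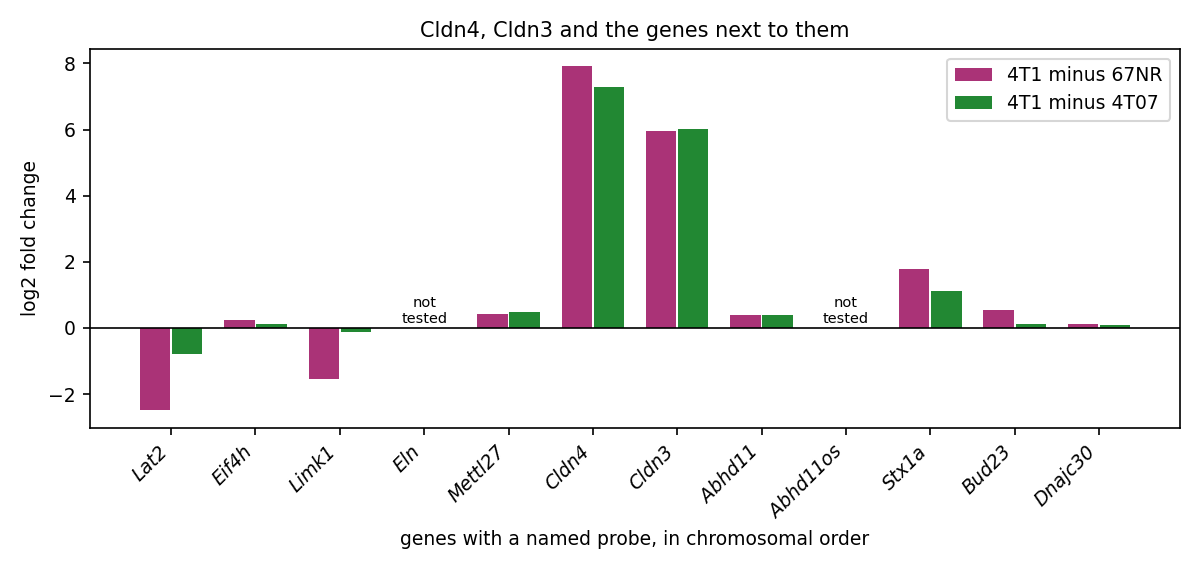
Log2 fold change (vertical axis) of Cldn4, Cldn3 and the 5 nearest genes with a named probe on each side, in chromosomal order, for 4T1 minus 67NR and 4T1 minus 4T07. Bars start at 0, and Eln and Abhd11os were not tested. The claudins reach 5.96 to 7.91 as fitted against levels at background in 67NR, and the tested neighbors lie between -2.49 and 1.79.

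The junction genes outside this list were described from a list of 92 genes, of which 64 had a named probe and 49 were tested. In 4T1 against 67NR, 24 of the 49 were higher, 12 lower and 13 did not pass, with a median of 0.33. Over all genes tested, 23.2% were higher and 26.6% lower there. The 24 include Dsg2, Lsr and Marveld3, which entered the test only through the 4T1 arrays. They also include Cldn2, Cldn23, Cxadr, Gja4, Pkp1, Ppl and Prkcz, which were likewise detected on no 67NR array. The count is therefore a description. In 4T07 against 67NR, 16 were higher and 11 lower, with a median of -0.04 (32.7% and 22.4%, beside 21.9% and 23.4% of all genes). The 16 include Cldn2, Cldn23, Cxadr, Gja4, Pkp1, Ppl and Prkcz again, and Pard6g, which was detected in 4T07 only. Nectin3, Gjc1 and Cldn1, among the 11, were detected on no 4T07 array, so these counts too are a description. In 4T1 against 4T07, 20 were higher and 6 lower, with a median of 0.40 (40.8% and 12.2%, beside 14.0% and 15.8% of all genes). The 20 include Dsg2, Lsr, Marveld3, Nectin3 and Gjc1, detected on no 4T07 array, and the 6 include Pard6g, detected on no 4T1 array. These counts are likewise a description. The 20 and 6 fell to 13 and 3 without 4T07 replicate 1. The 6 lower genes also fell to 3 without 4T07 replicate 2, 4T1 replicate 1 or 4T1 replicate 2. The share of all genes called in that comparison fell as well, from 29.8% to 22.2%, 22.1%, 24% and 22.7% in these fits, in that order. The 12 genes lower in 4T1 than in 67NR fell to 7 without 67NR replicate 2 or 4T1 replicate 3. There 44.3% and 44.7% of all genes were called, beside 49.8% with all arrays.

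Of the 15 desmosome genes listed, 7 had a named probe, and these 7 were tested. Of them, 6 were higher and 1 lower in 4T1 than in 67NR, and 5 were higher and 1 lower in 4T07 than in 67NR. Dsg2, Ppl and Pkp1, among the 6, were detected on no 67NR array, as were Ppl and Pkp1 among the 5. These counts are therefore a description. Of all genes, 23.2% were higher and 26.6% lower in 4T1, and 21.9% and 23.4% in 4T07. Dsg2, a desmosomal cadherin, was at background in 67NR (4.45 ± 0.03, SD, n = 3) and 4T07 (4.47 ± 0.06) and reached 10.39 ± 0.08 in 4T1, at least 37.8-fold higher than in 67NR (adjusted p = 2.12e-11, limma) and at least 39.3-fold higher than in 4T07 (adjusted p = 4.73e-11). It thus had the detection pattern of Cldn3, and like Cldn3 it was tested only because it was detected in 4T1. Ppl, which encodes periplakin, a plakin of the cell border, was instead high in both other lines, at 10.19 ± 0.16 in 4T07 and 9.94 ± 0.27 in 4T1 against 4.79 ± 0.34 in 67NR (at least 33.1-fold and at least 27.8-fold). The plakophilin genes Pkp2 (5.57 in 67NR, 7.99 in 4T07, 9.07 in 4T1) and Pkp3 (6.64, 8.29 and 8.87) rose at each step, with adjusted p of 0.0195 and 0.0209 for the step from 4T07 to 4T1.

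The other claudins did not move as one group: of 6 tested, 3 were higher and 2 lower in 4T1 than in 67NR. These shares are 50% and 33.3%, beside 23.2% and 26.6% of all genes. Cldn2 and Cldn23, among the 3, were detected on no 67NR array, so these counts are a description. Cldn2, a claudin that forms cation pores, was at least 7.46-fold higher in 4T1 than in 67NR (4.70 against 8.04 on the log2 scale, adjusted p = 1.4e-07, limma). Cldn23 was at least 4.26-fold higher in 4T1 and at least 3.16-fold higher in 4T07 than in 67NR. Cldn1, a barrier-forming claudin, went the other way, with 6.17 ± 0.22 in 67NR against 4.72 ± 0.09 in 4T07 (at least 2.12-fold lower, adjusted p = 2.22e-05) and 4.81 ± 0.26 in 4T1 (log2 fold change -1.36, adjusted p = 3.44e-05), where it was detected on 1 of 3 arrays.

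Of 12 other tight junction genes, 6 were higher and 3 lower in 4T1 than in 67NR (50% and 25%, beside 23.2% and 26.6% of all genes). The 6 include Cxadr, Lsr and Marveld3, detected on no 67NR array, so these counts are a description. Cxadr, an adhesion receptor related to JAM-A, was detected on no 67NR array (4.43 ± 0.05) and rose to 10.18 ± 0.09 in 4T07 and 11.05 ± 0.02 in 4T1, at least 32.8-fold and at least 59.9-fold. Cgnl1, the scaffold paracingulin, had levels of 5.51, 7.89 and 10.52 in 67NR, 4T07 and 4T1, and rose at each step (adjusted p = 4.79e-05 and 5.93e-05, limma). Lsr, a protein of tricellular junctions, was at background in 67NR and 4T07 and was at least 13.7-fold higher in 4T1 than in 67NR. Marveld3, a relative of occludin, had the same detection pattern as Ocln, with 6.54 ± 0.09 in 4T1 and at least 2.73-fold over 4T07. Magi1, a scaffold, was lower than in 67NR both in 4T07 (-1.48, adjusted p = 0.000417, limma) and in 4T1 (-1.24, adjusted p = 0.0013).

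The test covered 11 adherens junction genes, of which 5 were higher and 2 lower when 4T1 was compared to 67NR, and 1 was higher and 1 lower in 4T07. In 4T1 these shares are 45.5% and 18.2%, beside 23.2% and 26.6% of all genes. In 4T07 they are 9.09% each, beside 21.9% and 23.4%. Ctnnb1, which encodes β-catenin, the partner of E-cadherin, was higher in 4T1 than in 67NR by 0.88 (SE 0.33, adjusted p = 0.0441, limma). Ctnna1, which encodes αE-catenin, was at 13.42 in 67NR, 13.41 in 4T07 and 13.54 in 4T1, and Cdh2, which encodes N-cadherin, at 5.56, 5.28 and 5.25; neither passed the test in any comparison. The nectin gene Nectin3 was detected in 67NR (10.32 ± 0.15) and 4T1 (9.41 ± 0.20) but on no 4T07 array (4.49 ± 0.12), at least 37.7-fold lower in 4T07 than in 67NR (adjusted p = 6.68e-11).

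**Figure D4:**
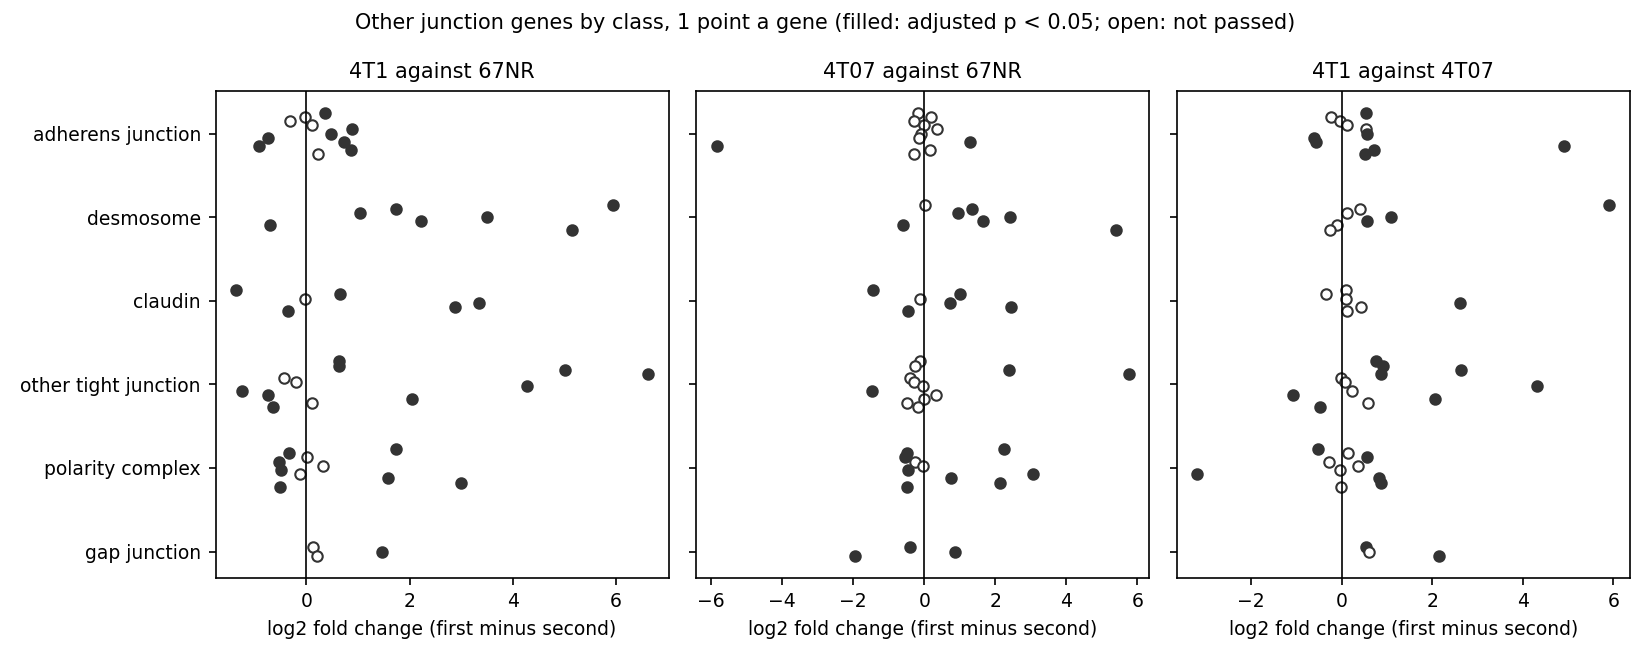
Log2 fold change (horizontal axis, first line minus second) of the 49 tested junction genes outside the list, by class, in the 3 comparisons. Each point is 1 gene, filled where its adjusted p is under 0.05. Desmosome genes lay mostly to the right for both lines against 67NR, with 6 of 7 and 5 of 7 higher. Over all genes tested, 23.2% and 21.9% were higher there. Dsg2, Ppl and Pkp1 were detected on no 67NR array, so these counts are a description. Polarity genes lay on both sides.

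Of 12 known regulators of these genes that were tested, 5 were higher and 3 lower in 4T1 than in 67NR (41.7% and 25%, beside 23.2% and 26.6% of all genes). In 4T07 against 67NR 2 were higher and 4 lower (16.7% and 33.3%, beside 21.9% and 23.4%). The 5 include Esrp1 and Esrp2, which were detected in 4T1 only, and Elf3, which was detected on no 67NR array. Elf3 is also 1 of the 2 higher in 4T07. Among the lower genes, Snai2 was detected on no 4T1 or 4T07 array, and Grhl2, lower in 4T07, on no 4T07 array. These counts are therefore a description. Zeb1, a repressor of Cdh1, was lower in 4T1 (6.64 ± 0.34) and 4T07 (6.87 ± 0.46) than in 67NR (10.88 ± 0.27), with log2 fold changes of -4.24 (adjusted p = 5e-08, limma) and -4.02 (adjusted p = 9.56e-08). Between 4T1 and 4T07 the difference of Zeb1 was -0.23 (adjusted p = 0.537). The repressor Snai2 was detected on all 67NR arrays and on no other (at least 10.0-fold lower in 4T1 and at least 9.76-fold lower in 4T07). Snai1, a repressor of the same family, was higher in 4T07 than in 67NR by 0.90 (adjusted p = 0.00437, limma), and its difference between 4T1 and 67NR was 0.17 (adjusted p = 0.546). Esrp1, an epithelial splicing factor, had the 4T1-only pattern of Cldn3, at 11.93 ± 0.24 and at least 111-fold over 67NR. Grhl2, an activator of epithelial genes, was at 6.20 ± 0.36 in 67NR, on no 4T07 array (4.47 ± 0.05) and at 8.48 ± 0.26 in 4T1. The levels of Twist1, a repressor of Cdh1, were 10.05 in 67NR, 5.20 in 4T07 and 9.46 in 4T1.

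Levels of cell type markers also differed between the lines. Of the 6 keratin genes listed for tumor epithelium, 1 was detected on all 67NR arrays, 3 on all 4T07 arrays and 5 on all 4T1 arrays, and their summed level ran from 7.40 to 7.66 in 67NR, 12.25 to 12.95 in 4T07 and 14.84 to 15.14 in 4T1 on the log2 scale. Krt18, Krt19, Krt14 and Krt5 were detected on no 67NR array; Krt19 was also detected on no 4T07 array, and Krt5 on no array of any line. Of 9 fibroblast and pericyte markers, 5 were detected on all 67NR arrays, 3 on all 4T07 and 3 on all 4T1 arrays. Their summed levels were 11.38 to 11.82, 11.53 to 12.11 and 10.09 to 10.31. A sum is set by its brightest probes and includes probes at background. Of the 6 tested, 1 (Acta2) was higher and 4 lower in 4T1 than in 67NR, beside 23.2% and 26.6% of all genes. In 4T07 against 67NR, 1 (Dcn) was higher and 2 lower, beside 21.9% and 23.4%. The summed level of the 4 named leukocyte markers was 9.05 to 9.60 in 67NR, 7.59 to 8.23 in 4T07 and 7.37 to 7.88 in 4T1. Of the 6 endothelial markers, 0 were detected on all arrays of any line (7.28 to 7.62 summed), the adipocyte marker Adipoq was seen on no array, and the red blood cell marker Hba-a1 was detected on all arrays in 67NR only (7.63 to 8.45). The part of other cell types in the differences of the junction genes was not tested.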

How the data were processed

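Total RNA of sorted tumor cells was measured on 9 1-color Illumina bead arrays, 3 for each of 67NR, 4T07 and 4T1. The authors deposited, for 45281 probes, the intensity of each probe on each array, neither background-subtracted nor normalized, and a detection p-value of the probe against negative controls. A deposited table of the authors' log2 values covers 22834 of these probes, with a median of 7.48 on the array of 67NR replicate 1. The processing of this table is not stated in the labels or the methods, and it served as an alternative only. Against the log2 intensities, every column of it correlated at 0.998 or higher, so that its direction and scale are known, while the rule that chose its probes is not. Genes were named through the platform annotation of the probes of that table, of which 19281 had 1 gene symbol, 10 several and 3543 none. Entrez IDs of 19261 were found in the RefSeq gene table and 0 symbols changed. Every column of the tables belongs to a sample of this series.

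From the intensities, background was corrected and arrays were quantile-normalized with the neqc function (R 4.3.3, limma 3.58.1), which used an offset of 16 and estimated the negative controls from the detection p-values. A probe was kept if its detection p was below 0.05 on 3 or more arrays, the brightest probe stood for a gene, and lmFit and eBayes were run for 10021 genes over the 9 arrays together (6 residual degrees of freedom), with p-values adjusted by Benjamini-Hochberg and called below 0.05. The fit was tested on simulated data. The number of arrays limits the precision.

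The members and the lists of other junction genes, regulators and cell type markers were chosen with earlier results of these data known. Named were every member with each of its probes, the markers, and the 8 genes whose levels correlate best with the mean profile of the tested members. Also named, per comparison and class, were up to 3 other junction genes or regulators. These had the largest change past the threshold and groups that did not overlap. Ctnna1, Cdh2, Snai1, Esrp2, Pkp1, Elf3 and the neighbors of the claudins were added after values were seen. So was a second mention of a gene in a comparison outside these rules. Alternatives were median centring, normexp (offset 50), the log2 intensities without any background correction, the authors' values, no detection filter or a stricter one (below 0.01 on the 3 arrays of any line), a mean over the kept probes of a gene, fits of 2 lines at a time, a block for the replicate number, a minimum of 2-fold, the methods' t-test (the two-tailed unpaired test the study names in general), and each array left out. A block for the slide could not be fitted, because the slides are not stated.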

Additional observations from a re-analysis of the deposited data

How the results depend on the processing

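The members called higher in 4T1 numbered 5 against 67NR and 5 against 4T07 with each array left out (5 to 5 in both), and 2 to 3 in 4T07 against 67NR (3 with all arrays); 0 to 0 were lower in each comparison. The call that was lost is Cldn4 in 4T07 against 67NR, also with the authors' values (0.28, adjusted p = 0.126, limma), with no background correction (0.34, adjusted p = 0.0727), with the methods' t-test (adjusted p = 0.136) and at 2-fold. For 4T1 against 67NR the differences of Cdh1 (2.92 to 5.14), Cldn3 (3.59 to 6.03), Cldn4 (5.55 to 8.05), F11r (1.78 to 3.90) and Ocln (0.40 to 1.23) kept their direction and call under every alternative, each lowest with the authors' values. So did Cdh1 (0.77 to 2.14) and F11r (0.93 to 2.60) in 4T07 against 67NR, and Cdh1 (2.15 to 3.11), Cldn3 (3.67 to 6.09), Cldn4 (5.27 to 7.43), Ocln (0.40 to 1.23) and F11r (0.85 to 1.53) in 4T1 against 4T07. The sign turned only for differences that did not pass the test. With an array left out, the difference of Cldn3 in 4T07 against 67NR ran from -0.14 to 0.01 (highest without 4T07 replicate 1). That of Cldn7 in 4T1 against 67NR ran from -0.32 to 0.23 (positive without 67NR replicate 1 and, at 0.05, without 4T1 replicate 1) and was 0.02 with median centring, and in 4T07 against 67NR it ran from -0.43 to 0.12 (positive without 67NR replicate 1). That of Ocln in 4T07 against 67NR ran from -0.12 to 0.07 (positive without 67NR replicate 2 and, at 0.01 each, without 67NR replicate 1 and 4T07 replicate 1), and was 0.01 with no background correction and 0.02 with normexp. Cldn7 did not pass the stricter filter.

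Of the other junction genes, those lower in 4T1 than in 67NR (12) numbered 7 with median centring, 7 with the methods' t-test, 2 at 2-fold and 7 to 11 with an array left out; those lower in 4T07 than in 67NR (11) numbered 7, 7, 4 and 8 to 11. Those higher in 4T1 than in 4T07 (20) numbered 12 with the t-test, 8 at 2-fold and 13 to 21 with an array left out, and those lower (6) 2 at 2-fold and 3 to 6. Those higher than 67NR ranged from 21 to 24 in 4T1 and 15 to 16 in 4T07 with an array left out. Over all genes, those lower in 4T1 than in 67NR (2665) numbered 2047 with median centring, 2102 with the t-test and 1090 at 2-fold. For 4T07 against 67NR (2344 lower) they numbered 1861, 1675 and 900. All genes higher in 4T1 than in 4T07 (1400) numbered 844 with the t-test and 471 at 2-fold, and those lower (1585) 529 at 2-fold. The cause of these shifts was not tested, except that the 2-fold rule removes smaller differences by its construction. Replicate numbers did not pair the arrays throughout (r of deviations -0.169 to 0.153 between arrays of the same number). For 1 of 9 arrays the best match in both other lines had its own number. Between 67NR and 4T1, though, r was positive for every same number (0.0494, 0.153 and 0.131) and negative otherwise (-0.118 to -0.00194). In the comparisons with 4T07, same-number r ran from -0.169 to 0.104. With the replicate block, 5 members were higher in 4T1 than in 67NR, 3 in 4T07 than in 67NR and 5 in 4T1 than in 4T07, and in that order the other junction genes gave 23 higher and 9 lower, 16 and 10, and 19 and 6. Probes near background limit the values of Cldn7, Ocln, Jup and Tjp3.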

Other observations

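Genes of the polarity complexes, which set the position of the junctions, lay on both sides. Of 10 tested, 3 were higher and 4 lower in 4T1 than in 67NR, and 4 were higher and 4 lower in 4T07 than in 67NR. Over all genes, 23.2% were higher and 26.6% lower in 4T1, and 21.9% and 23.4% in 4T07. Prkcz and, in 4T07, Pard6g are among the higher genes and were detected on no 67NR array, so these counts are a description. Prkcz, an atypical protein kinase C, was at 4.72 ± 0.08 (SD, n = 3) in 67NR, 6.85 ± 0.24 in 4T07 and 7.71 ± 0.09 in 4T1 and rose at each step (at least 3.26-fold in 4T07, at least 5.91-fold in 4T1, adjusted p = 0.00105 from 4T07 to 4T1, limma). Pard6g, a Par complex subunit, was detected in 4T07 only (7.69 ± 0.43), at least 5.85-fold over 67NR and at least 6.23-fold over 4T1, and entered the test only through 4T07. Of the gap junction genes, Gjc1 was detected in 67NR and 4T1 (6.99 ± 0.05) and on no 4T07 array (4.85 ± 0.26), at least 3.25-fold lower in 4T07 than in 67NR.

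The 8 genes whose levels correlated best with the mean profile of the 6 tested members over the 9 arrays were Slc18b1, Dhh, St14, F2r, Rpia, Sh3d21, Anxa6 and Ppp1r26, with a Pearson r of 0.98 to 0.99; 129 genes had an r over 0.95. St14, which encodes matriptase, a protease of the epithelial cell surface, was at 4.68 in 67NR, 5.24 in 4T07 and 8.84 in 4T1. These correlations are a description over 9 arrays of 3 lines, and lines that differ in many genes give many such values.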
